A study of Mus musculus with 16 samples.

Results

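Ornithine transcarbamylase (Otc) and 7 further enzymes that make or use citrulline, ornithine and arginine were followed in the ileal epithelium of mice. They were chosen by gene symbol: Cps1, Oat, Ass1, Asl, Arg1, Arg2 and Glud1 beside Otc. They are 8 of the 8251 genes on the array, read by 12 of its 10833 probe sets with a single gene symbol. The set was drawn up because earlier results of these data put Otc among the genes lowest in adenoma relative to WT, so the differences between tumours and WT are given here as a description, without a test. The comparison of carcinoma with adenoma was tested, with the limit that it shares the adenoma arrays with the comparison that singled out Otc.

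The samples were ileal epithelial cells collected by laser capture, with total RNA amplified in 2 rounds before hybridisation to Affymetrix MG_U74Av2 arrays. By their titles, 6 arrays were WT, 5 were adenoma (a benign tumour) and 5 were carcinoma (an invasive tumour), and no treatment is labelled. The genotype behind the tumours, the strain, the age of the mice, what the prefix shared by the titles stands for and how cells were chosen for capture are not stated in the labels used here. Nothing in the labels ties arrays to animals, so p-values measure the spread between captured samples, which may be partly technical, and are too small if arrays of a group shared an animal. The number of arrays limits the precision.

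In the small intestine, epithelial mitochondria turn glutamine and glutamate into ornithine, and Otc joins ornithine to carbamoyl phosphate to form citrulline. Citrulline leaves the gut in the blood and is made into arginine in the kidney, which is why the intestine is a main source of the body's arginine. Cps1 supplies the carbamoyl phosphate, Oat (ornithine aminotransferase) supplies the ornithine, and Glud1 (glutamate dehydrogenase) releases ammonia from glutamate. Ass1 and Asl convert citrulline to arginine by way of argininosuccinate, and the arginases Arg1, in the cytosol, and Arg2, in mitochondria, split arginine into ornithine and urea.

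Signals of Otc, Cps1, Oat and Arg2 were lower in both tumour groups than in WT, while signals of Arg1 and, in carcinoma, Ass1 were higher, so the genes around citrulline did not move as a block. Of the 8 genes, all of which were bright enough to test, 4 were lower and 1 higher in adenoma past a limma adjusted p of 0.05, against 8.28% of all 7455 genes tested (4.25% lower and 4.02% higher). In carcinoma against WT 4 were lower and 2 higher, against 9.05% of all genes (4.90% lower and 4.16% higher). WT and adenoma did not overlap for 3 genes lower and 1 higher in adenoma, against 5.79% of all genes (2.74% lower and 3.06% higher), and WT and carcinoma did not overlap for 3 lower and 2 higher, against 6.28% (3.15% lower and 3.13% higher). The choice of the genes used these differences, so nothing is read from the counts. Among alternative settings of the analysis, 28 in number, the call of Cps1 in adenoma was made in 20 and that of Ass1 in carcinoma in 13. The median log2 difference of the 8 genes was -1.22 in adenoma and -1.35 in carcinoma, and that of all genes was -0.14 in both.

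**Figure D1:**
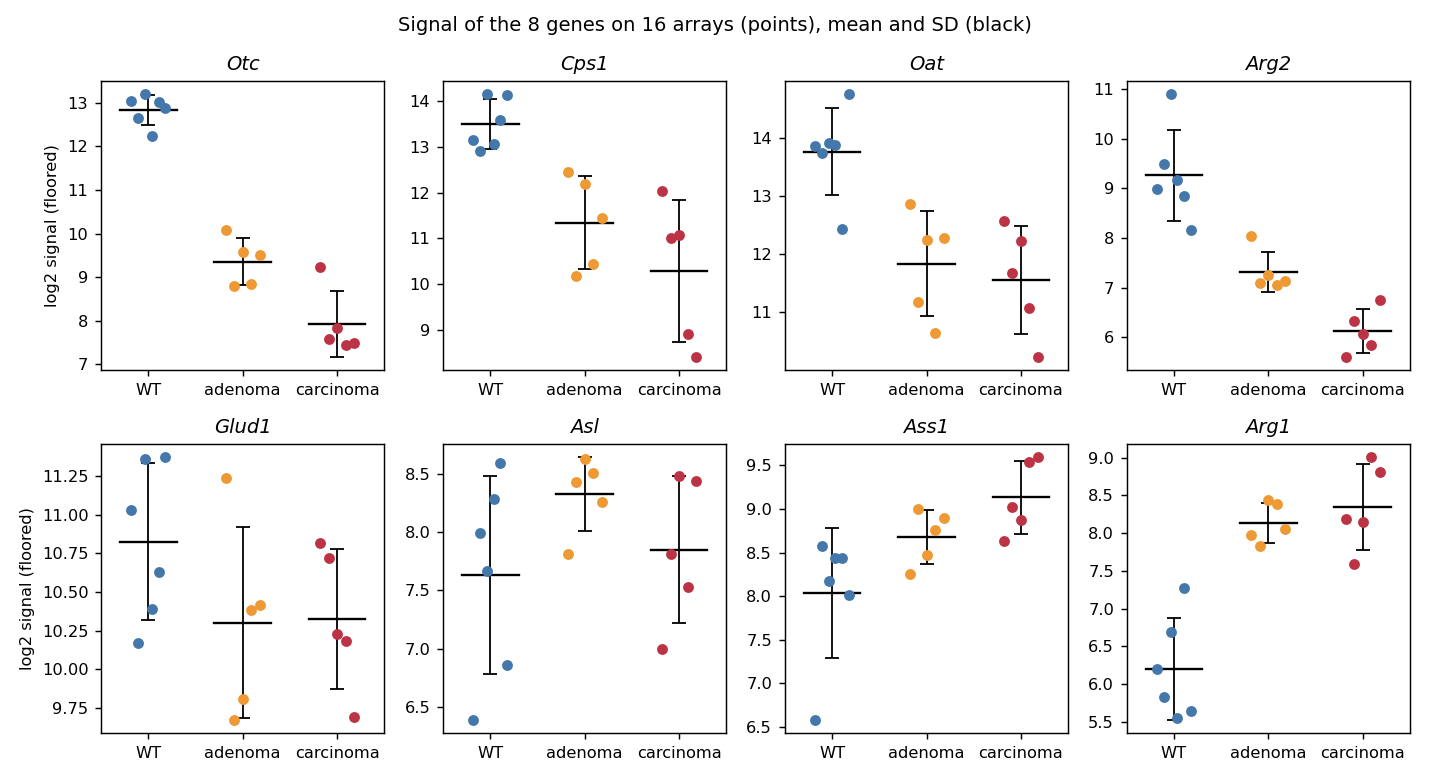
Log2 signal of the 8 genes, 1 panel per gene, with a point for each of the 6 WT, 5 adenoma and 5 carcinoma arrays, a black line at the group mean and bars of 1 SD. Signals below 46.9 were set to that floor, and each panel has its own axis, which does not start at 0. Otc, Cps1, Arg2 and Arg1 show no overlap between WT and either tumour group.

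The genomic sequence around the start of transcription was at hand for 4 of the 8 genes, from RefSeq, build GRCm38.p6, as 250 bases before the start and 50 after it. Those of Otc and Oat, which were lower in the tumours, and of Ass1, which was higher in carcinoma, are shown because these genes stand next to each other in the pathway and went different ways. Capitals mark matches, on either strand, to any of 4 strings. The TATA box was searched as TATAAA. The CCAAT box was searched as spelled. The GC box was searched as GGGCGG, where adjoining matches run together in the Oat window. The last string searched was CAAAG, which occurs in binding motifs of nuclear receptors and Tcf factors. Otc lies on the plus strand at chrX:10252055-10252354, Oat on the minus strand at chr7:132576349-132576648 and Ass1 on the plus strand at chr2:31470020-31470319.
Otc: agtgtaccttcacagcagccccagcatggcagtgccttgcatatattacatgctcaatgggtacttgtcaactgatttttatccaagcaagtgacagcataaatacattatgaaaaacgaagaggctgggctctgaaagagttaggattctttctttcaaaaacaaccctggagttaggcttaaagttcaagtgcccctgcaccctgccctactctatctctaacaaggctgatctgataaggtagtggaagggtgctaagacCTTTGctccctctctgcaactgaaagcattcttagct
Oat: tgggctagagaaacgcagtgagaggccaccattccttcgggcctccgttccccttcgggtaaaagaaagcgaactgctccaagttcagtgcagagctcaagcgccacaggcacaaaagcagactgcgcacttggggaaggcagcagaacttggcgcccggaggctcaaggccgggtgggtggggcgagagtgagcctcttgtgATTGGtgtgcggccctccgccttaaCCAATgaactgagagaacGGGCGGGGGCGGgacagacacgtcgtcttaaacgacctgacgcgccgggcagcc
Ass1: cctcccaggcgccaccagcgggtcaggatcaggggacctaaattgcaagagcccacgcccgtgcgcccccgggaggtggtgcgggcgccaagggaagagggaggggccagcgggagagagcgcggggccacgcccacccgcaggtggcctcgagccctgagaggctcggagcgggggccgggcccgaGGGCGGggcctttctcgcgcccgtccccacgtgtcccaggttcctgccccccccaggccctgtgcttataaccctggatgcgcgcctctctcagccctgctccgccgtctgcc
The Otc sequence held 1 CpG and 44.3% G and C bases, against 22 CpGs and 61.7% for Oat, 27 and 74.0% for Ass1 and 51 and 81.0% for Glud1. The median of all 32851 promoters in the table was 7 CpGs and 52.7%. Of the strings searched, the Otc window held CAAAG alone, once on the minus strand, a string present in 53.9% of all promoters. Oat held CCAAT on both strands, a string present in 37.4% of all promoters, and GC boxes, present in 35.7%. Ass1 held 1 GC box. The TATAAA string, present in 13.6% of all promoters, was in none of the 3 windows shown. These matches describe the letters and say nothing of which factors bind.

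Otc, read by the single probe set 94414_at, had a signal of 4811 to 9385 on the WT arrays, with a median of 7929. On adenoma arrays 1 to 5 it was 1083, 445, 759, 460.5 and 725. On carcinoma arrays 1 to 5 it was 606, 191, 229.5, 176 and 180.1. Every WT array lay far above every tumour array, and carcinoma 1 was the only carcinoma array inside the adenoma range. The mean log2 signal of the WT arrays was 12.83 ± 0.35 (SD, n = 6), that of the adenoma arrays 9.36 ± 0.54 (SD, n = 5) and that of the carcinoma arrays 7.92 ± 0.75 (SD, n = 5). That is 11.1-fold lower in adenoma than in WT (log2 difference -3.47 ± 0.33, SE) and 30.1-fold lower in carcinoma (-4.91 ± 0.33). Ordered by size, these were the 3rd and the 2nd lowest differences of the 7455 genes. In bulk captures like these, fewer cells that express a gene and less RNA per cell cannot be told apart.

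Between the tumours, Otc was 2.71-fold lower in carcinoma than in adenoma (log2 difference -1.44 ± 0.35), but the limma test did not pass the correction (adjusted p = 0.327, unadjusted p = 0.000615). The groups overlapped through carcinoma 1. Without that array the difference was -1.77 ± 0.30 and passed (adjusted p = 0.0363). Only 0.0268% of the genes tested passed in this comparison, all of them lower in carcinoma.

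Cps1, carbamoyl phosphate synthetase, was read by 93824_at, with a signal of 7702 to 18245 on the WT arrays and a median of 10745. On adenoma arrays 1 to 5 it was 5590.0, 1165, 4677, 1396 and 2794, and on carcinoma arrays 1 to 5 it was 4219, 2075, 2152, 482 and 339. All tumour arrays lay below all WT arrays, and the spread within each tumour group was wide, with adenoma 2 and 4 and carcinoma 4 and 5 low. The WT arrays had a mean log2 signal of 13.50 ± 0.55 (SD, n = 6), the adenoma arrays 11.34 ± 1.01 (SD, n = 5) and the carcinoma arrays 10.29 ± 1.55 (SD, n = 5). Cps1 was 4.47-fold lower in adenoma than in WT (-2.16 ± 0.58) and 9.28-fold lower in carcinoma (-3.21 ± 0.58). The difference of -1.05 ± 0.60 between carcinoma and adenoma did not pass (limma adjusted p = 1), with a 95% interval of -2.32 to 0.21.

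Oat, the mitochondrial enzyme that makes ornithine from the glutamate side, was among the brightest of the 8 by its main probe set 92848_at, with a signal of 5543 to 27485 in WT and a median of 14933. On adenoma arrays 1 to 5 it was 7419.5, 2305, 4862, 1599.6 and 4952, and on carcinoma arrays 1 to 5 it was 6100.2, 3275, 4784, 2169 and 1202. WT 5, at 5543, overlapped with both tumour groups, and the other 5 WT arrays lay above every tumour array. Oat was 3.79-fold lower in adenoma than in WT (-1.92 ± 0.47) and 4.60-fold lower in carcinoma (-2.20 ± 0.47). Carcinoma and adenoma differed by -0.28 ± 0.49 (limma adjusted p = 1, 95% interval -1.31 to 0.75). Its other probe set, 161278_r_at, was at the floor on 4 arrays of each group and was too dim to test.

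Glud1, which links glutamate to ammonia and the citric acid cycle, had overlapping signals in all 3 groups. By 92586_at its signal ran from 1149.8 to 2657 in WT (median 1835), from 816 to 2411 in adenoma (median 1336) and from 827 to 1801 in carcinoma (median 1198). Adenoma 1, the brightest tumour array for Glud1, lay inside the WT range. Mean log2 signal differed from WT by -0.52 ± 0.32 in adenoma and -0.50 ± 0.32 in carcinoma, and carcinoma and adenoma differed by 0.03 ± 0.34 (limma adjusted p = 1, 95% interval -0.68 to 0.73). With only WT 3 and WT 6 kept of the WT arrays, the 2 of low spike-in signal, Glud1 differed from WT by -1.07 ± 0.42 in adenoma and -1.04 ± 0.42 in carcinoma, and with the spike-in signal in the model by -0.94 ± 0.39 and -0.92 ± 0.39. A dimmer probe set, 162364_f_at, whose suffix marks probes shared within a sequence family, differed from WT by -1.05 ± 0.45 in adenoma and by -1.40 ± 0.45 in carcinoma.

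The enzymes that turn citrulline into arginine had higher or overlapping signals in the tumours. Ass1, argininosuccinate synthase, was read by 97521_at, with a signal of 95.9 to 381 in WT and a median of 317.5. On adenoma arrays 1 to 5 it was 305.5, 512, 356, 433 and 476, and on carcinoma arrays 1 to 5 it was 398, 519.6, 468, 743 and 775. Every carcinoma array lay above every WT array, while adenoma 1 and 3 fell inside the WT range and WT 1 stood below all others. Ass1 was 1.56-fold higher in adenoma than in WT (0.64 ± 0.33) and 2.14-fold higher in carcinoma (1.10 ± 0.33). The latter was past the threshold in 13 of 28 alternative settings, and not in 10 of the 16 that left out a single array. Without WT 1 it was 0.80 ± 0.26. The step from adenoma to carcinoma was 0.46 ± 0.34 (limma adjusted p = 1, 95% interval -0.26 to 1.17).

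Asl, argininosuccinate lyase, gave opposite answers by its probe sets. By the one with the higher mean, 104566_at, its signal ran from 83.7 to 387 in WT, from 225 to 397 in adenoma and from 128 to 358 in carcinoma, with differences from WT of 0.70 ± 0.38 and 0.22 ± 0.38. By 161891_r_at it ran from 80.9 to 535 in WT, from 59.6 to 157.0 in adenoma and from 25.2 to 197 in carcinoma, with differences from WT of -1.47 ± 0.47 and -1.27 ± 0.47. All these ranges overlapped, and no direction is given for Asl. Between carcinoma and adenoma the probe sets gave -0.48 ± 0.40 and 0.20 ± 0.49 (limma adjusted p = 1 for each).

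The arginases went opposite ways. Arg2, the mitochondrial form, had a signal of 287 to 1903 in WT by 98473_at, with a median of 544. On adenoma arrays 1 to 5 it was 263, 137, 152, 133 and 140.5, and on carcinoma arrays 1 to 5 it was 48.6, 80.1, 66.9, 57.9 and 108. The 3 groups did not overlap at any point, with WT highest and carcinoma lowest. Arg2 was 3.85-fold lower in adenoma than in WT (-1.95 ± 0.38) and 8.81-fold lower in carcinoma (-3.14 ± 0.38).

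The step from adenoma to carcinoma for Arg2 was -1.19 ± 0.40, with a limma unadjusted p of 0.00717 and an adjusted p = 1. Of all genes tested, 0.537% showed no overlap between carcinoma and adenoma (0.376% lower and 0.161% higher in carcinoma), and Arg2 was the only one of the 8 that did. The dimmer probe set 161246_at, below the floor on 2 WT, 3 adenoma and 2 carcinoma arrays, did not show the decline, with differences from WT of -0.47 ± 0.36 in adenoma and -0.01 ± 0.36 in carcinoma. It differed between carcinoma and adenoma by 0.45 ± 0.38, opposite in sign to the brighter probe set.

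Arg1, the cytosolic arginase best known from the liver urea cycle and from macrophages, had a signal of 35.7 to 154 in WT by its single probe set 93097_at, with a median of 65.3. On adenoma arrays 1 to 5 it was 252, 229, 346, 335 and 265, and on carcinoma arrays 1 to 5 it was 291, 193, 283, 516 and 450.5. All 10 tumour arrays lay above all 6 WT arrays, of which 1 was at the floor, so the folds are slightly understated. Arg1 was 3.83-fold higher in adenoma (1.94 ± 0.33) and 4.43-fold higher in carcinoma (2.15 ± 0.33) than in WT. Carcinoma and adenoma differed by 0.21 ± 0.34 (limma adjusted p = 1, 95% interval -0.51 to 0.93).

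**Figure D2:**
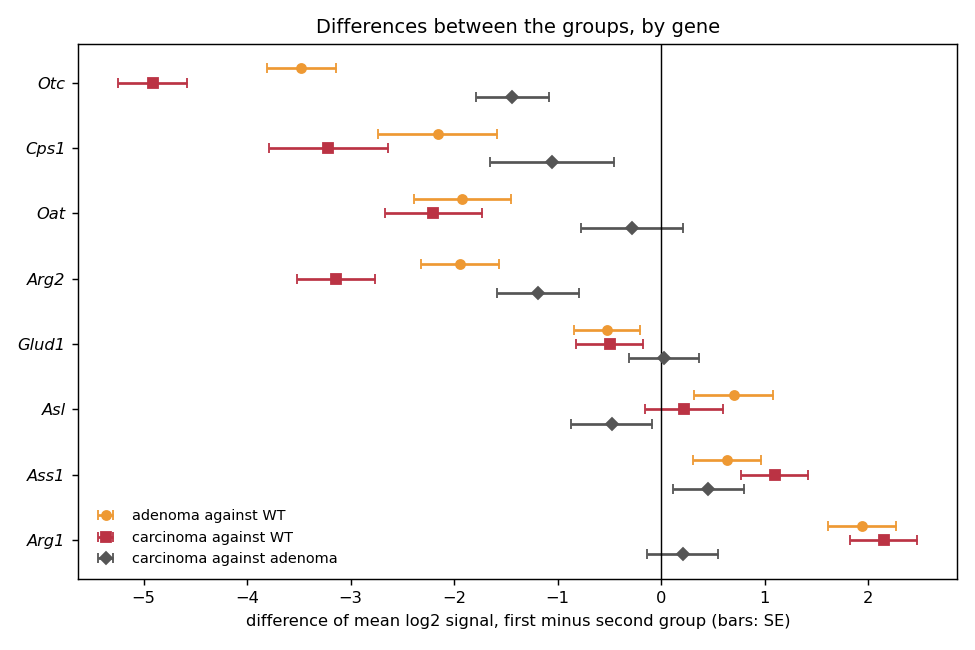
Difference of mean log2 signal between groups for each of the 8 genes, for adenoma against WT (circles), carcinoma against WT (squares) and carcinoma against adenoma (diamonds), with bars of 1 SE and a line at 0. Otc lies farthest to the left at -3.47 and -4.91, and Arg1 farthest to the right at 1.94 and 2.15.

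In carcinoma against adenoma, none of the 8 genes passed limma at an adjusted p of 0.05, and 2, Otc and Arg2, had an unadjusted p under 0.05, both lower in carcinoma. The median of the 8 differences was -0.38, against 0.01 over all genes. The order of the group means was WT, adenoma, carcinoma from high to low for Otc, Cps1, Oat and Arg2, and from low to high for Ass1 and Arg1. The neighbours adenoma and carcinoma overlapped for Otc, Cps1, Oat, Ass1 and Arg1, for Otc through a single carcinoma array, and of the 6 only Arg2 had none.

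Markers of cell types differed between the groups for some lists and not for others, and the control measures differed in mean between WT and the tumours. Beside the marker counts, 4.25% of all genes fell and 4.02% rose in adenoma, and 4.90% fell and 4.16% rose in carcinoma. Of 8 epithelial markers (such as Vil1, Cdh1 and Krt8), 0 passed limma in adenoma against WT, and 1, Krt20, fell in carcinoma. Their summed signal ran from 63480.0 to 159815 in WT, from 59748 to 90260.1 in adenoma and from 41710.4 to 104412 in carcinoma, with no marker at the floor on every array. Of 8 markers of absorptive enterocytes tested, the cells known to make citrulline, 1 fell in adenoma (Fabp2) and 2 in carcinoma (Apoa1 and Fabp2), with a median log2 difference of -0.49 and -1.85. Their summed signal ran from 9143 to 68554 in WT, from 2299 to 45143 in adenoma and from 1081 to 5522 in carcinoma, and no marker was at the floor on every array. On adenoma 1 and adenoma 3 this sum was 45143 and 30977, inside the WT range, while their Otc signals of 1083 and 759 lay below the lowest WT signal of 4811. On adenoma 2, 4 and 5 the sum was 2299, 4039 and 8814, below every WT array, and their Otc signals were 445, 460.5 and 725. On all 5 carcinoma arrays the sum also lay below every WT array. The mean log2 signal of the same 8 markers separated the arrays less. By it adenoma 4 (8.40) and 5 (8.93) and carcinoma 2 (8.69) and 3 (8.62) lay above the lowest WT array, WT 6 (7.96). Adenoma 2 (7.15) and carcinoma 1 (7.14), 4 (7.68) and 5 (6.71) lay below it. The part of these cells in the lower Otc, Cps1, Oat and Arg2 signals of either tumour group was not tested.

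Beside the higher Arg1 signal, of 9 macrophage and granulocyte markers tested 0 passed limma in either tumour group against WT. Their summed signal ran from 1748 to 3288 in WT, from 2360.0 to 3813 in adenoma and from 2554.5 to 5758 in carcinoma, with Itgam at the floor on all 16 arrays, and their part in the Arg1 signal was not tested. Hepatocyte markers, which would come with liver Arg1, Otc and Cps1, summed to 856 to 1899 in WT, 461 to 1515 in adenoma and 819 to 2331 in carcinoma, and Alb was the only one of 5 tested that rose, in carcinoma. Of 7 Paneth and goblet markers, Clca1, Fcgbp and Tff3 fell and Mmp7 and Pla2g2a rose in both tumour groups. Their summed signal was 94656.5 to 200974 in WT, above the 52354 to 59959.9 of adenoma and the 42778 to 87477 of carcinoma. Of 6 lymphocyte and plasma cell markers, Cd79b and Jchain fell in adenoma and Jchain in carcinoma, and the summed signal of the list was 1204 to 2025 in WT, 454 to 1008.0 in adenoma and 528 to 1148 in carcinoma, with no overlap with WT. Of 10 smooth muscle and fibroblast markers, Acta2 and Myh11 fell in both, and Col1a1 and Dcn rose in carcinoma, with overlapping sums of 5904 to 12798 in WT, 6584 to 11343 in adenoma and 8426 to 16609.8 in carcinoma. The part of these cells in the results was not tested. Mean log2 signal of the spiked-in transcripts was 12.44 to 14.73 in WT against 11.38 to 13.47 in adenoma and 11.56 to 12.70 in carcinoma. The log2 ratio of 3' to 5' Gapdh signal, an RNA quality measure, was 4.09 to 5.02 in WT against 5.52 to 6.12 and 4.95 to 6.45. Of the tumour arrays only carcinoma 4 (4.95) lay in the WT range of this ratio. The part of RNA quality in the differences from WT was not tested.

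With only the 2 WT arrays of low spike-in signal (WT 3 and WT 6) kept, Otc was lower than WT by -3.68 ± 0.48 in adenoma and -5.11 ± 0.48 in carcinoma. With the Gapdh ratio as a covariate these were -3.13 ± 0.58 and -4.60 ± 0.55. With a spike-in covariate they were -3.90 ± 0.41 and -5.34 ± 0.41. Otc passed the threshold against WT in all 28 alternative settings, but it was chosen for its low values against WT, so nothing is read from this. Cps1 was lower by -2.80 ± 0.87 and -3.86 ± 0.87 with only WT 3 and WT 6, by -1.82 ± 1.02 and -2.91 ± 0.96 with the Gapdh ratio, and by -3.44 ± 0.61 and -4.50 ± 0.61 with the spike-in covariate. Arg1 was higher by 1.97 ± 0.40 and 2.18 ± 0.40 in the first setting and by 2.15 ± 0.58 and 2.34 ± 0.54 in the second. Oat was lower by -1.22 ± 0.80 and -1.57 ± 0.76 with the Gapdh ratio and by -3.12 ± 0.44 and -3.40 ± 0.44 with a spike-in covariate.

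Variation within groups, which the choice of genes did not use, set Cps1 beside Otc. After each gene's group mean was subtracted, the deviations of Otc and Cps1 on the 16 arrays correlated with Pearson's r = 0.781 (permutation p = 0.00076 within groups, adjusted over 11 relations 0.00808) and Spearman's rho = 0.768 (permutation p = 0.00064, adjusted 0.00704). Of all other genes tested, 0.0805% had an r with Otc at least as high. Without carcinoma 1 and adenoma 1, the arrays farthest from the median of Otc, r was 0.665. Within the 6 WT arrays r was 0.614 and within the 10 tumour arrays 0.807.

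Over all 16 arrays the other members followed Otc less closely within groups than Cps1 did. For Glud1 r was 0.614 (permutation p = 0.0145, adjusted 0.0532), for Oat 0.597 (permutation p = 0.0321, adjusted 0.0706) and for Ass1 -0.517 (permutation p = 0.0197, adjusted 0.0541), none past the correction. The rho of Ass1, -0.621, did pass (permutation p = 0.0113, adjusted 0.0414), and those of Glud1, 0.565 (permutation p = 0.0368, adjusted 0.081), and Oat, 0.615 (permutation p = 0.0234, adjusted 0.0644), did not. Without carcinoma 1 and adenoma 1 the r of Glud1, Oat and Ass1 was 0.445, 0.407 and -0.423. Within the 10 tumour arrays it was 0.616, 0.812 and -0.789, where Cps1 had 0.807. Within the 6 WT arrays it was 0.687, -0.160 and -0.396. Oat thus followed Otc about as closely as Cps1 did in the tumours, but not in WT, and these splits were not tested. Asl had an r of -0.479 and a rho of -0.435 (permutation p = 0.0501 and 0.0963, adjusted 0.0918 and 0.151). The arginases showed no relation that could be detected, with an r of 0.09 for Arg1 and 0.055 for Arg2 (permutation p = 0.761 and 0.812, both adjusted 0.812) and a rho of 0.274 and 0.021 (permutation p = 0.315 and 0.945, adjusted 0.385 and 0.945).

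Otc also moved within groups with the median signal of the array, at r = -0.819 (permutation p = 0.00147, adjusted 0.00808) and rho = -0.788 (permutation p = 0.00204, adjusted 0.0112), and r = -0.679 without carcinoma 1 and adenoma 1. Arrays with a low median, such as carcinoma 1 at 126.8, had high Otc for their group. With array medians aligned the correlation of Otc and Cps1 was 0.855, and after quantile normalization 0.802. Aligning shifts Otc and Cps1 by the same amount on each array, which by itself can raise r. Nothing is read from the rise. Leaving out single arrays raised the permutation p of the correlation of Otc and Cps1 to at most 0.0191, without carcinoma 4, and to 0.0086 without carcinoma 5. For the mean of the 8 enterocyte markers r with Otc was 0.330 and rho 0.485 (permutation p = 0.207 and 0.0887, adjusted 0.284 and 0.151), and without carcinoma 1 and adenoma 1 r was 0.446. For the spike-in signal r was -0.413 and rho -0.424 (permutation p = 0.0816 and 0.13, adjusted 0.128 and 0.179), and for the Gapdh ratio -0.199 and -0.232 (permutation p = 0.588 and 0.401, adjusted 0.719 and 0.441). The arrays share amplification and scaling, and the part of these in the relation was not tested.

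**Figure D3:**
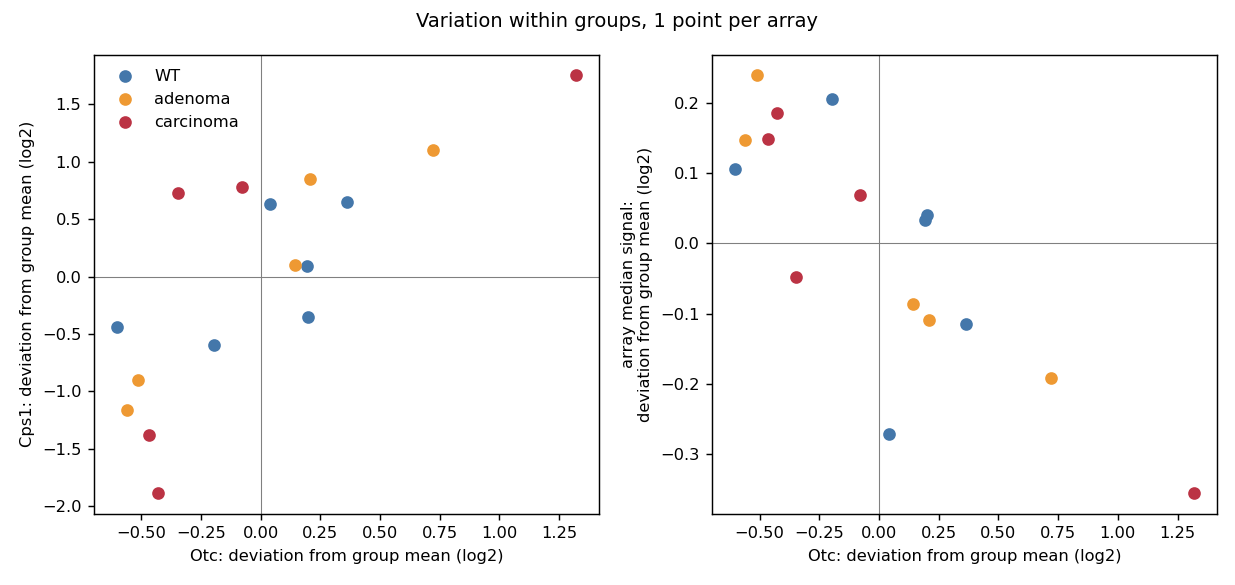
Deviation of each array from its group mean on the log2 scale, with Otc on the horizontal axis of both panels, Cps1 on the vertical axis of the left panel and the array's median signal on that of the right, 1 point per array coloured by group. Otc and Cps1 rise together (r = 0.781), Otc falls as the array median rises (r = -0.819), and carcinoma 1 lies at the far right of both.

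The genes with the profile most like that of Otc were found by the root mean square difference of log2 signal over the 16 arrays, after each gene's own mean was subtracted. Apart from the 8 genes, the 5 nearest of 7454 were the fatty acid transporter Slc27a2 (0.67), the antimicrobial lectin Reg3a (0.70), the gluconeogenic enzyme Fbp1 (0.70), the monoamine oxidase Maoa (0.76) and the goblet cell protein Clca1 (0.78). All 5 had WT signals above every tumour signal, and Slc27a2 was at the floor on all carcinoma arrays, where its fold is understated. Genes near Otc largely share its gap between WT and tumours by the way they were found, so nothing is read from this. Maoa, for example, ran from 1148 to 2925 in WT, from 86.2 to 762 in adenoma and from 56.5 to 148 in carcinoma. Fbp1 ran from 1065 to 2197 in WT, from 148 to 337 in adenoma and from 95.4 to 224 in carcinoma. Among the 8 genes, Cps1 was the 12th nearest to Otc (0.997), Arg2 the 18th (1.10) and Oat the 41st (1.29). Glud1 was the 838th (1.92), Asl the 6287th (2.47), Ass1 the 7037th (2.70) and Arg1 the 7365th (3.16). These ranks largely restate the differences between tumours and WT.

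**Figure D4:**
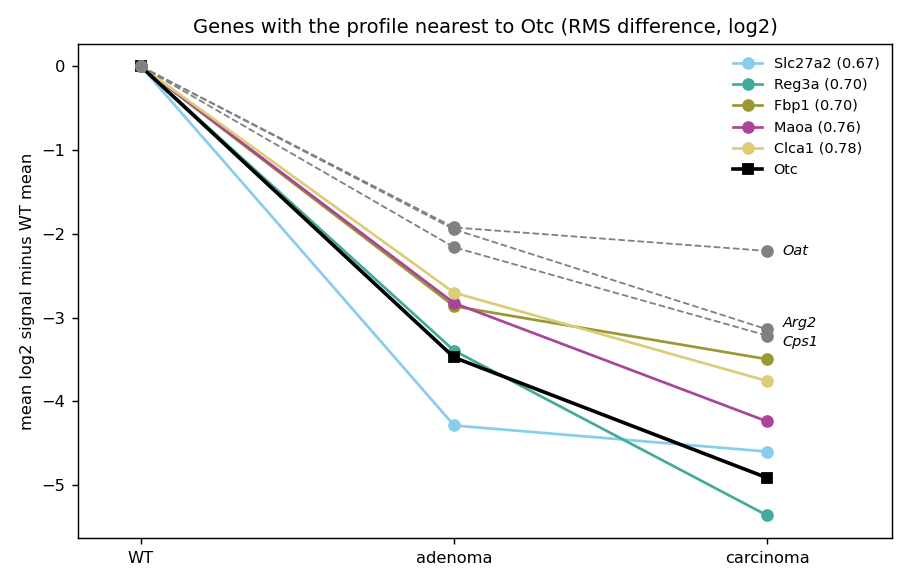
Mean log2 signal of each group minus the WT mean, for Otc (black squares), the 5 genes outside the pathway with the nearest profile (coloured, with their root mean square difference in the legend) and Cps1, Arg2 and Oat (grey, dashed). Otc reaches -3.47 in adenoma and -4.91 in carcinoma, and Slc27a2 reaches -4.29 and -4.60.

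Other genes of glutamate, proline, arginine and polyamine metabolism were taken from 4 lists. Of 57 genes listed, 37 were on the array and 31 were bright enough to test. Against WT, 1 rose and 4 fell in adenoma and 2 rose and 4 fell in carcinoma past a limma adjusted p of 0.05, against 8.28% and 9.05% of all genes. The median log2 difference of the list was -0.02 in adenoma and -0.15 in carcinoma, against -0.14 over all genes in both. In carcinoma against adenoma 0 passed, with 2 at an unadjusted p under 0.05, both lower in carcinoma. With the Gapdh ratio in the model, 1 of the 31, Slc1a1, passed in each tumour group.

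Of 9 amino acid transporters tested, 3 fell in each tumour group, where 4.25% and 4.90% of all genes fell. Their median was -1.09 in adenoma and -0.99 in carcinoma, against -0.14 over all genes, and the lists were not compared by a test. Slc7a9 and Slc3a1 form the brush border exchanger that takes up cystine and dibasic amino acids such as arginine and ornithine. Slc7a9 had a signal of 614 to 2059.5 in WT, 73.3 to 758 in adenoma and 107.8 to 294 in carcinoma, and fell by 1.92 ± 0.49 on the log2 scale in adenoma (limma adjusted p = 0.02) and fell by 2.61 ± 0.49 in carcinoma (adjusted p = 0.00189). Carcinoma arrays all lay below WT, while adenoma 1 lay inside the WT range. The Slc7a9 call in adenoma was lost without adenoma 2 (-1.81 ± 0.53, limma adjusted p = 0.054) and with array medians aligned (-1.62 ± 0.55, 0.0754). Both calls were lost with only WT 3 and WT 6 kept of the WT arrays (-1.81 ± 0.69, adjusted p = 0.238, and -2.49 ± 0.69, adjusted p = 0.0791). A Gapdh ratio covariate also lost both (-1.55 ± 0.86, adjusted p = 0.585, and -2.27 ± 0.81, adjusted p = 0.238).

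Slc3a1 had a signal of 309 to 817 in WT, 73.1 to 344.5 in adenoma and 34.9 to 178.5 in carcinoma. It fell by 2.74 ± 0.40 in carcinoma (limma adjusted p = 0.00017), where no array overlapped with WT. Slc3a1 lost that call with a Gapdh ratio covariate (-2.47 ± 0.66, limma adjusted p = 0.0806). Its fall of 1.39 ± 0.40 in adenoma passed narrowly (adjusted p = 0.0382) and was lost without any 1 of WT 1 (-1.29, adjusted p = 0.0767), WT 2 (-1.39, 0.0622), WT 4 (-1.27, 0.0783), adenoma 2 (-1.03, 0.107) or adenoma 5 (-1.35, 0.0888), and with the replicate number as a block (-1.43 ± 0.46, adjusted p = 0.0644). In all it was lost in 14 of 28 alternative settings, among them quantile normalization (-1.33, adjusted p = 0.0679), array medians aligned (-1.10, 0.122), a floor at the 10th percentile (-1.39, 0.0667), no filter (-1.39, 0.0545), a spike-in covariate (-1.44, 0.137), a Gapdh ratio covariate (-1.10, 0.647), only WT 3 and WT 6 kept (-1.19, 0.387) and only the 2 groups fitted (-1.39, 0.052). Slc3a1 was also 2.54-fold lower in carcinoma than in adenoma (-1.35 ± 0.42), which did not pass (limma adjusted p = 1, unadjusted p = 0.00464).

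Slc1a1, the epithelial glutamate and aspartate transporter, had a signal of 152 to 979 in WT, and was at the floor on 4 of 5 adenoma and 4 of 5 carcinoma arrays. It fell by 3.06 ± 0.39 in adenoma (limma adjusted p = 4.71e-05) and fell by 3.14 ± 0.39 in carcinoma (adjusted p = 3.32e-05), which understates the change because of the floor. No tumour array reached the lowest WT array. The remaining transporters did not pass: the mitochondrial ornithine carrier Slc25a15, which feeds Otc, had overlapping signals of 1481 to 18108 in WT, 1246 to 6302 in adenoma and 1467 to 7091 in carcinoma, with differences from WT of -1.32 ± 0.63 (limma adjusted p = 0.22) and -1.06 ± 0.63 (adjusted p = 0.319). The basolateral carrier Slc7a7 differed by -0.20 ± 0.26 and -0.18 ± 0.26.

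Among 9 users of arginine and ornithine, 1 fell in adenoma, and 1 fell and 1 rose in carcinoma. Of all genes, 4.25% fell and 4.02% rose in adenoma, and 4.90% fell and 4.16% rose in carcinoma. Nos2, the inducible nitric oxide synthase, which consumes arginine, had a signal of 46.2 to 279.6 in WT and lay at or near the floor in most tumour arrays, with 10.7 to 56.1 in adenoma and 41.0 to 79.8 in carcinoma. It fell by 1.47 ± 0.36 in adenoma (limma adjusted p = 0.0159) and by 1.41 ± 0.36 in carcinoma (adjusted p = 0.0185), though WT 5 was at the floor too. Both Nos2 calls were lost after quantile normalization (-1.15, adjusted p = 0.0559, and -1.03, 0.082), with a spike-in covariate (-1.46, 0.0866, and -1.40, 0.111) and with a Gapdh ratio covariate (-0.63, 0.765, and -0.64, 0.705). The carcinoma call was also lost with only WT 3 and WT 6 kept of the WT arrays (-1.11, 0.0553) and with only the 2 groups fitted (-1.41, 0.053).

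Odc1, ornithine decarboxylase, the entry to polyamine synthesis, had a signal of 1170.4 to 1979.8 in WT, 2022 to 2691 in adenoma and 2534 to 3753 in carcinoma. Every tumour array lay above every WT array. It rose by 0.96 ± 0.21 in carcinoma (1.95-fold, limma adjusted p = 0.00722) and was higher by 0.59 ± 0.21 in adenoma, which did not pass (adjusted p = 0.104) but did with array medians aligned (0.89, adjusted p = 0.0298) and with no filter on dim genes (0.59, 0.0275). The carcinoma call was lost with only WT 3 and WT 6 kept of the WT arrays (0.67 ± 0.26, adjusted p = 0.243), with a spike-in covariate (0.81 ± 0.27, 0.0949) and with a Gapdh ratio covariate (0.84 ± 0.36, 0.353). The polyamine enzymes Sat1 (0.85 ± 0.37 and 0.93 ± 0.37) and Srm (0.29 ± 0.36 and 0.58 ± 0.36) were higher in both tumour groups without passing.

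Of 7 enzymes of glutamine, glutamate and proline metabolism tested, 0 passed limma in either tumour group, with 1 lower at an unadjusted p under 0.05 in adenoma and 1 higher and 1 lower in carcinoma. Glutamine synthetase (Glul) differed from WT by 0.02 ± 0.29 and 0.12 ± 0.29, and the mitochondrial aspartate aminotransferase Got2 by -0.58 ± 0.34 and -0.44 ± 0.34. Their median was -0.02 and -0.25.

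Of 6 transcription factors known to act on urea cycle genes and tested here, 1 rose in each tumour group. Of all genes, 4.02% rose in adenoma and 4.16% in carcinoma. Foxa1, a forkhead factor of endoderm, had a signal of 253 to 573 in WT, 897 to 1370.4 in adenoma and 1032 to 1359 in carcinoma. It rose by 1.54 ± 0.24 in adenoma (2.90-fold, limma adjusted p = 0.000472) and by 1.63 ± 0.24 in carcinoma (3.09-fold, adjusted p = 0.000231), with no overlap. Hnf4a, a nuclear receptor known to act on Otc, was near the floor, with 2 of 6 WT, 3 of 5 adenoma and 5 of 5 carcinoma arrays at it, so its level could not be compared. Cebpa differed by -0.24 ± 0.27 and -0.15 ± 0.27. Foxa2, another forkhead factor, differed from WT by -0.08 ± 0.41 in adenoma and -1.19 ± 0.41 in carcinoma. Neither passed (limma adjusted p = 0.932 and 0.0795), though carcinoma did not overlap with WT. Between carcinoma and adenoma Foxa2 differed by -1.12 ± 0.43, which did not pass either (limma unadjusted p = 0.0181).

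**Figure D5:**
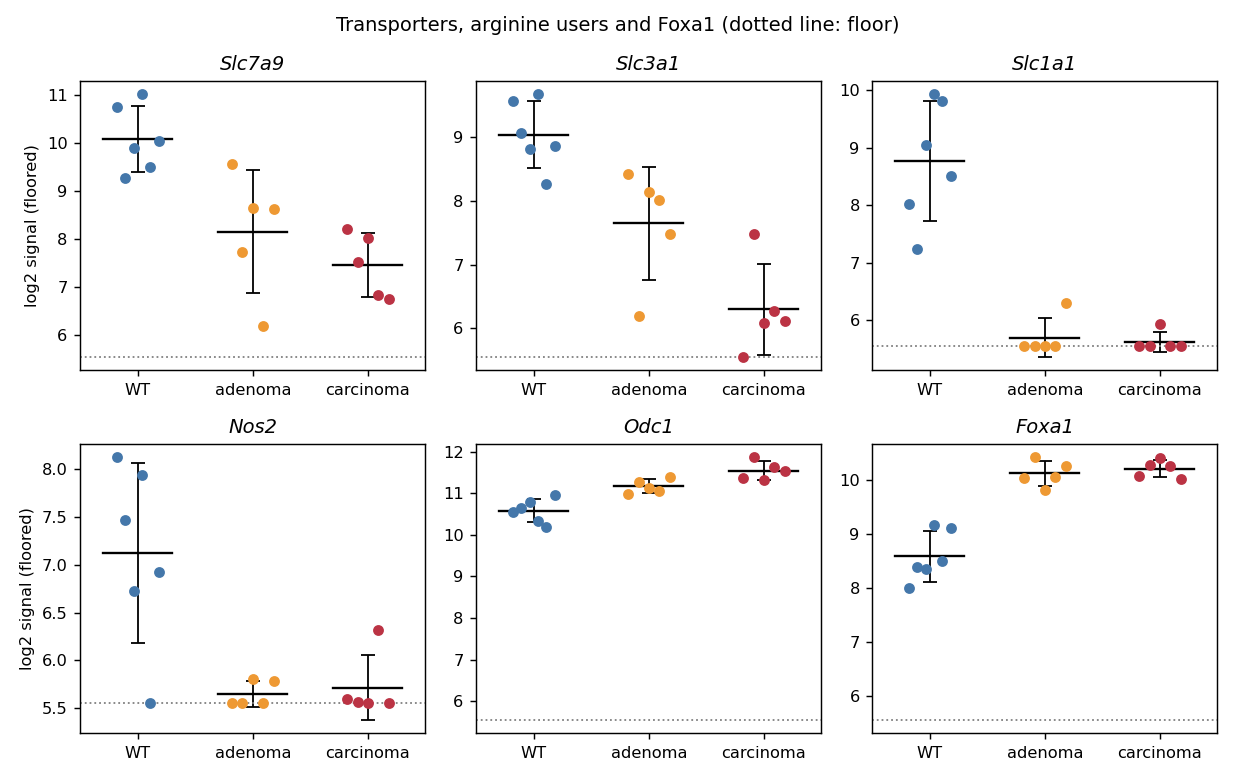
Log2 signal of the 6 genes of the wider pathway lists that passed limma against WT, with a point per array, the group mean and SD in black, and the floor of 5.55 as a dotted line. Slc7a9, Slc3a1, Slc1a1 and Nos2 are lower in the tumours, with most tumour arrays of Slc1a1 on the floor, and Odc1 and Foxa1 are higher.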

How the data were processed

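Values came from 16 Affymetrix MG_U74Av2 arrays of laser-captured mouse ileal epithelium (6 WT, 5 adenoma, 5 carcinoma, grouped by sample title), with RNA amplified in 2 rounds per the labels. The authors deposited a table of linear intensities for 12488 probe sets on each array, per the labels and its values. No label names the software that made them. Trimmed means were 500.3 to 500.4 on every array, with 2% cut at each end, so no further scaling was applied.

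Intensities under the 25th percentile (46.9) were set to it before log2. The brightest probe set of a gene by mean was used, and genes above the floor on at least 5 arrays were tested (7455 of 8251), without the 66 control probe sets. One model of all 3 groups was fitted by limma 3.58.1 (R 4.3.3), with Benjamini-Hochberg adjustment over all genes tested at 0.05, two-sided. The fit was tested on simulated data with 200 changed genes. Of 2-fold changes it found 20.9% in adenoma against WT, 16.4% in carcinoma against WT and 20.9% in carcinoma against adenoma. Of 4-fold changes it found 71.2%, 68.2% and 77.3%. Most 2-fold changes were thus missed. Wrong calls made up 11.1%, 8.20% and 1.49%, so in this simulation both comparisons with WT lay above the threshold of 0.05. With only 200 changed genes these shares are uncertain and do not settle whether the true rate exceeds it. Single symbols were given for 10833 probe sets (396 had several, 1193 none). Of the 10833, 10817 were found in a GRCm38.p6 gene table and took its symbol, whether or not it had changed. Correlations within groups used 100000 permutations within groups. Figures used matplotlib 3.10.9. Genes, lists and tests were chosen with earlier results of these data known. Named by rule beside the 8 genes were, per list and comparison, up to 4 genes past the threshold with the smallest p, and the 5 nearest profiles. The list genes Slc25a15, Slc7a7, Sat1, Srm, Glul, Got2, Hnf4a, Cebpa and Foxa2 did not pass and were named outside this rule.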

Additional observations from a re-analysis of the deposited data

Results flagged for a closer look

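Among 36 groups of arrays (12 probe sets in 3 groups), 6 held an array far from the others by Dixon's test, which chance flags in about 1 of 20 groups. For Otc this was carcinoma 1, at 9.24 on the log2 scale against a group mean of 7.92, the array that brought the carcinoma group into the adenoma range. For Arg2 it was adenoma 1 by 98473_at (8.04) and adenoma 2 by 161246_at (6.51). For Ass1 it was WT 1, low at 6.58 against a group mean of 8.04. For the dim Oat probe set 161278_r_at these were adenoma 2 (6.86) and carcinoma 3 (5.89), where the other 4 arrays of each group were at the floor.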

How the results depend on the processing

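Over 28 settings, the differences of Otc, Cps1, Oat, Arg2, Arg1, Ass1 and Glud1 from WT kept their direction in both tumour groups. Otc ranged from -3.90 to -3.13 in adenoma and from -5.34 to -4.59 in carcinoma. Asl against WT turned with the mean of its probe sets, to -0.38 in adenoma and -0.53 in carcinoma, and in carcinoma also with the Gapdh ratio (-0.32) and without WT 1 (-0.028). The 5 of 8 genes past the threshold in adenoma became 3 with array medians aligned, 1 with a Gapdh ratio covariate and 2 with only WT 3 and WT 6 kept of the WT arrays, and the 6 in carcinoma became 3 with the Gapdh ratio. Of the wider lists, 5 in adenoma became 3 after quantile normalization, 3 with only these WT arrays and 1 with the Gapdh ratio, and 6 in carcinoma became 3 and 1 in the last 2 settings. Leaving out single arrays gave 3 to 6 list genes in adenoma, lowest without adenoma 2, and 0 to 1 of the 8 genes in carcinoma against adenoma. Over all genes, calls in adenoma fell from 617 to 70 with the Gapdh ratio and to 196 with only WT 3 and WT 6 kept, and in carcinoma from 675 to 100 and 217. With array medians aligned, 75.8% of the adenoma calls and 73.7% of the carcinoma calls were higher, against 48.6% and 45.9%, and the median difference of all genes was 0.12 and 0.15. Between carcinoma and adenoma, small differences turned sign: Glud1 with the mean of its probe sets (-0.16), with 162364_f_at (-0.35) and with single arrays left out (-0.13 to 0.26), Oat with single arrays left out (-0.58 to 0.051 without carcinoma 5), Arg2 with 161246_at (0.45) and Asl with 161891_r_at (0.20). The settings with other probe sets, and those for the correlation of Otc and Cps1, were added after seeing the data. That correlation ran from 0.703 to 0.856 over 23 settings, with a permutation p of at most 0.0191. Other floors, other filters and averaged probe sets left it at 0.781, because both genes had a single probe set and were never at the floor. The cause of the changes between settings was not tested. Arrays of the same number in different groups deviated together with correlations of -0.265 to 0.398, so the numbers were not taken as pairs. With the replicate block, in which WT 6 has no partner and drops out, 5, 6 and 0 of the 8 genes passed in the 3 comparisons, and Otc was -3.47 ± 0.27 in adenoma and -4.90 ± 0.27 in carcinoma.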
